A study of Mus musculus with 34 samples.

Results

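The JunD peak lists of thioglycollate-elicited macrophages (TGEMs) were compared between 2 inbred mouse strains, C57Bl/6EiJ and Balb/cJ. A ChIP-seq peak is a stretch of DNA that was enriched over input after precipitation with an antibody, here sc-74 against JunD. The members are the peaks of 4 lists, 113795 of the 545551 peaks in the 22 lists used. There were 19653 JunD peaks in C57Bl/6EiJ with vehicle (Veh, PBS) and 28652 in Balb/cJ with Veh. After 1 h of Kdo2-lipid A (KLA), a TLR4 ligand, there were 31640 peaks in C57Bl/6EiJ and 33850 in Balb/cJ. All mice were labelled male and, by the study's methods, were 8 weeks old, with TGEMs collected 3 days after thioglycollate and chromatin crosslinked first with disuccinimidyl glutarate and then with formaldehyde. The series has 34 samples and 30 peak lists, among them the lists of ATF3, Jun (labelled cJun), Fos and JunB in both strains, of PU.1 and CEBPa with either treatment and PPARg with Veh in C57Bl/6EiJ, and of JunD in Veh-treated PPARgKO TGEMs. The methods write the first strain as C57BL/6J, and the labels are followed here.

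JunD is a member of the AP-1 family of basic leucine zipper proteins. These proteins bind DNA as dimers of Jun, Fos and ATF members, and their best known site is the TPA response element (TRE). In macrophages, AP-1 proteins act at enhancers together with PU.1 and CEBP, and TLR4 signals change both which AP-1 members are present and where they bind. Inbred strains differ by many DNA variants, so the same antibody in 2 strains shows which loci are held by both and which by 1.

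Sequences of 6 loci are shown because they stand for the ends of the comparison. All are the central 200 bp of a locus on the plus strand of GRCm38 (mm10), which is the genome of C57BL/6J, so the alleles of Balb/cJ were not read. Capitals mark the TRE, TGACTCA, or its reverse complement TGAGTCA. Rab7b (chr1:131703553-131703752, intron) and Tmem260 (chr14:48422096-48422295, intergenic) were bound by JunD in C57Bl/6EiJ with both treatments and in neither Balb/cJ list. Cacna1a (chr8:84420644-84420843, intron), Rasal2 (chr1:157380795-157380994, intron) and Sipa1l2 (chr8:125278364-125278563, intergenic) were bound in Balb/cJ with both treatments and in neither C57Bl/6EiJ list, and the window at Sipa1l2 holds no TRE. Lgals3 (chr14:47371803-47372002, intron) was bound in all 4 lists and its window holds 2 TREs.
Rab7b: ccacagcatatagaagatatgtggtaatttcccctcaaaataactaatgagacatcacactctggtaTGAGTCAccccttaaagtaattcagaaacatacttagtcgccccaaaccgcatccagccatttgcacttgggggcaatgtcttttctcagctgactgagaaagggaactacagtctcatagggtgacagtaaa
Tmem260: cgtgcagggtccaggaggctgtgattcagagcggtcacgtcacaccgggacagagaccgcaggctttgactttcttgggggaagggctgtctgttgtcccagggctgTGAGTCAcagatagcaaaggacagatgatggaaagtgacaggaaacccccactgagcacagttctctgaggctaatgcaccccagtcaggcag
Cacna1a: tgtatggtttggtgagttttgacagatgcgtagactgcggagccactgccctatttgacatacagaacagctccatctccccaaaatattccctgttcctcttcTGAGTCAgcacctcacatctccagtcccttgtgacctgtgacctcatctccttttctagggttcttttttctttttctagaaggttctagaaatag
Rasal2: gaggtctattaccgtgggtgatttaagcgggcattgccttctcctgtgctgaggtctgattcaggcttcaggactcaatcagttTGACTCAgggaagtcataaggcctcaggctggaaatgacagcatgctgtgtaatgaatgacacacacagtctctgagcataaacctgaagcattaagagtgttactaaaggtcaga
Sipa1l2: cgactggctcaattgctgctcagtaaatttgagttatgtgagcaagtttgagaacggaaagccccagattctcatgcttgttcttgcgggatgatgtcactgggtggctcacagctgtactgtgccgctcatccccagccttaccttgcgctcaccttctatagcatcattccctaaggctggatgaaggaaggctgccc
Lgals3: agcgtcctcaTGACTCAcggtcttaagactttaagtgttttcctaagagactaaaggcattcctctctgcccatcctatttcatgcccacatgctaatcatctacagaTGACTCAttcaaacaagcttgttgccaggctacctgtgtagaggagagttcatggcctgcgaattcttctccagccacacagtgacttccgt

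Most of the strongly bound loci were common to both strains, and most strain-only loci were weak. Where peaks of both strains overlapped, by 1 bp or more, they were merged and counted as 1 shared locus. With Veh, 33416 loci were found, of which 14861 (44.5%, 95% Wilson interval 43.9 to 45.0) were shared. Another 13780 (41.2%, 40.7 to 41.8) were found in Balb/cJ only and 4775 (14.3%, 13.9 to 14.7) in C57Bl/6EiJ only. With KLA, 42057 loci were found, of which 23396 (55.6%) were shared, 10435 (24.8%) were Balb/cJ-only and 8226 (19.6%) were C57Bl/6EiJ-only. When each longer list was cut by count to the length of the shorter, the Veh shares became 22.6% in both strains with 54.8% shared, and the KLA shares 21.2% in both strains with 57.6% shared. Lists of equal length give near equal numbers of strain-only loci by construction (5730 and 5738 with Veh, 8497 in each strain with KLA), so the cut bears on the shared share and not on which strain had more loci. Each strain and treatment has 1 list, in which the authors combined the replicates, so no test of a strain difference was possible, intervals cover counting error over loci only, and a locus below the threshold of a list counts as absent.

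Each peak has a deposited count that was not scaled between lists, and how the counts of replicates were combined is not given in the sources used here. Median counts were 50 and 43 in the Veh lists of C57Bl/6EiJ and Balb/cJ, against 277 and 49 in the KLA lists, and the lowest count of the C57Bl/6EiJ KLA list was 120, against 17 in Balb/cJ. Positions within a list, from percentile 0 for the weakest to 100 for the strongest peak, were therefore compared in place of counts. The median percentile of C57Bl/6EiJ-only loci was 24.6 with Veh and 24.8 with KLA, and that of Balb/cJ-only loci was 25.7 and 19.1. Shared loci had medians of 60.3 and 71.9 in the Veh lists of C57Bl/6EiJ and Balb/cJ, and of 60.2 and 64.1 in the KLA lists.

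Among the strongest 10% of peaks, 26 of 1962 (1.33%) were without a partner for C57Bl/6EiJ Veh, 64 of 2864 (2.23%) for Balb/cJ Veh, 43 of 3167 (1.36%) for C57Bl/6EiJ KLA and 47 of 3373 (1.39%) for Balb/cJ KLA. Among the weakest 10%, these shares were 54.9%, 97.0%, 59.5% and 84.8%. The share of strain-only peaks was larger at the weak end than at the strong end of each list.

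**Figure D1:**
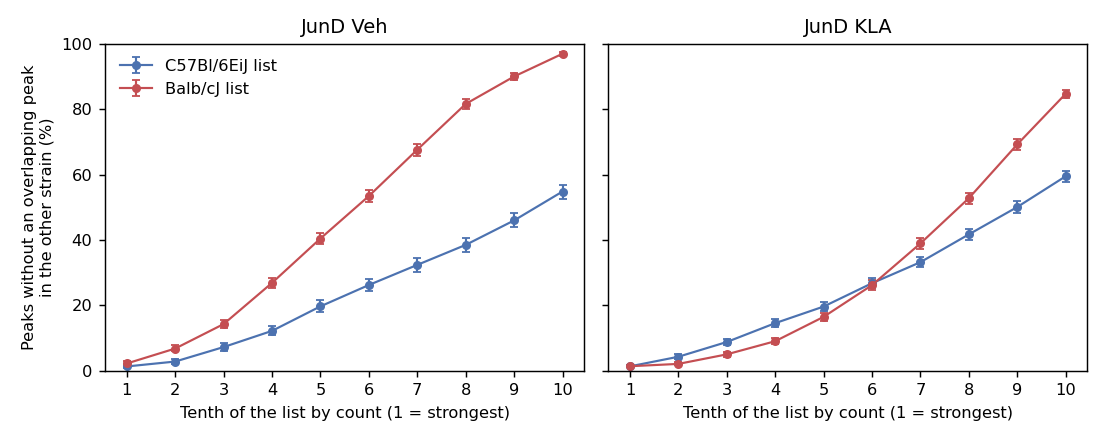
Share of JunD peaks without an overlapping peak of the other strain (y axis, %) in each 10% of the list by count (x axis, 1 is the strongest 10%), with Veh on the left and KLA on the right. Points are single lists and error bars are 95% Wilson intervals, and the Balb/cJ Veh list runs from 2.23% to 97.0%.

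A strain-only locus was seldom a shifted peak. A peak of the other strain lay within 100 bp, without overlap, at 2.60% of C57Bl/6EiJ-only and 0.856% of Balb/cJ-only Veh loci, and at 2.09% and 1.70% of the KLA loci. Within 1 kb this held for 22.4%, 14.6%, 24.8% and 21.2%. At shared loci, the absolute distance between the peak centres of the strains had a median of 21.5 bp with Veh and 18.5 bp with KLA.

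Shared loci kept much the same order in both strains. Across shared loci the Spearman correlation of counts was 0.838 with Veh (14861 loci) and 0.847 with KLA (23396 loci). The points come from 1 pair of lists per treatment and share its depth, so no p-value is given. Of 1936 loci in the strongest 10% of the C57Bl/6EiJ Veh list, 1719 (88.8%) were in the strongest 10% of the Balb/cJ Veh list, and with KLA this held for 2487 of 3124 (79.6%). A difference of 50 or more percentile points was seen at 336 shared Veh loci (2.26%) and 277 shared KLA loci (1.18%).

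**Figure D2:**
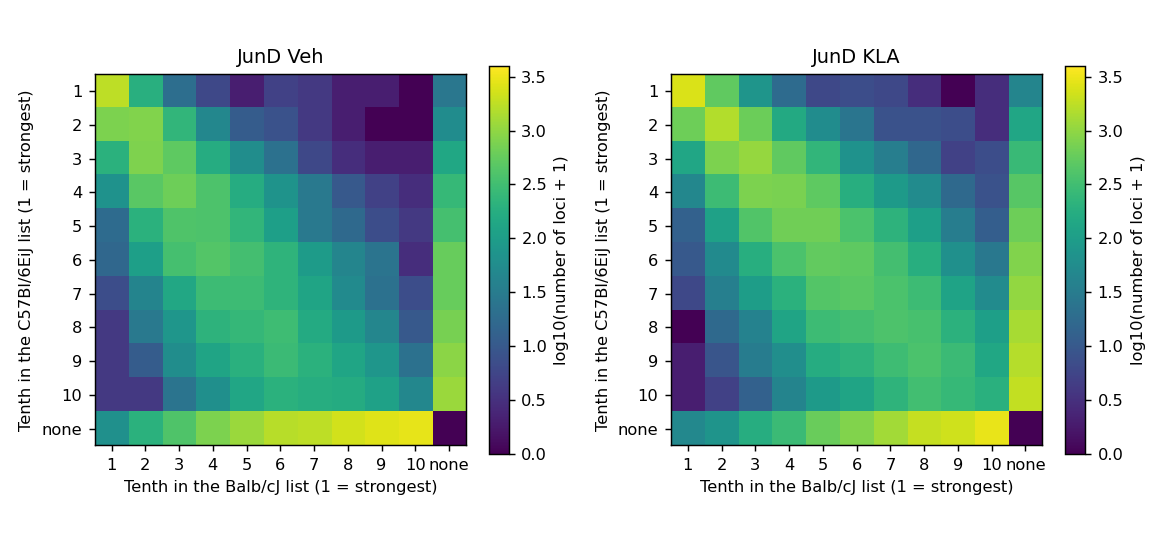
Number of JunD loci (colour, log10 of the number plus 1) by 10% step of the C57Bl/6EiJ list (y axis) and of the Balb/cJ list (x axis), 1 being the strongest step and "none" no peak in that list. With Veh, 1719 loci lie in the strongest cell of both lists, and loci without a partner gather at the weak end of the lists.

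The loci with the highest rank sums stood near the top of the lists of both strains. With Veh the first 3 were an intron of Lgals3, which encodes the lectin galectin-3, a site near Sfn (14-3-3 sigma) in an intron of Zdhhc18, and an intron of Jazf1 nearest to Tax1bp1. The Lgals3 peak had counts of 248 and 270 in the Veh lists of C57Bl/6EiJ and Balb/cJ, and of 953 and 222 in the KLA lists. With KLA the first 3 were an intron of Ehd1 nearest to Cdc42bpg, a site upstream of Il1a, the gene of interleukin-1 alpha, and an intergenic site nearest to Mrpl39. The Il1a site rose in position in both strains, from count 89 (percentile 85.2) to 1086 (99.99) in C57Bl/6EiJ and from 96 (87.6) to 282 (99.98) in Balb/cJ.

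Among shared loci in the strongest 10% of at least 1 list, the largest shifts in rank were as follows. With Veh, an intron near Zfpm1, a GATA cofactor gene, had count 27 (percentile 0.321) in C57Bl/6EiJ and 108 (90.8) in Balb/cJ. A site upstream of Ctnnb1, the beta-catenin gene, had counts 29 and 116, and an intron of Zfp618 near Ambp had 30 and 105. In the other direction, a site near Nfe2l1 had count 110 (92.2) in C57Bl/6EiJ and 23 (15.7) in Balb/cJ, an intron of Sntb2 had 118 and 26, and a site near Gpr176 had 116 and 33. With KLA, an intron of Steap3, an endosomal ferrireductase, had 637 (92.6) in C57Bl/6EiJ and 24 (9.50) in Balb/cJ, the same direction as with Veh (199 and 55). An intron of Ubr1 had 681 and 22, and an intron of Tnr had 660 and 30. Sites at Plbd1, Ctnnb1 and Ccl4, which encodes a chemokine, stood higher in Balb/cJ, with counts of 150, 178 and 207 (percentiles 8.98, 19.7 and 30.3) against 148, 149 and 121 (95.04, 95.2 and 90.4).

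The loci absent from 1 strain with the highest count in the other were named by rule. For C57Bl/6EiJ with Veh they lay near Nlrp1b, an inflammasome sensor, in a coding exon of Nat9, in introns of Tnr and of Rab7b, a small GTPase of the endosomal pathway, and near Dlx2. Their Veh counts were 154, 152, 139, 134 and 129, and their KLA counts in the same strain 552, 564, 660, 662 and 371. In Balb/cJ only the Tnr site had a peak, with count 30 after KLA. For Balb/cJ with Veh they lay in introns of Capzb (a subunit of the actin capping protein), Cracr2a and Slc1a2 (a glutamate transporter), and near Id2, an inhibitor of DNA binding, and Slc7a15. Their Veh counts were 229, 184, 171, 180 and 165 in that order, and all 5 were peaks of both KLA lists, with 651, 263, 125, 800 and 613 in C57Bl/6EiJ and 173, 155, 108, 178 and 125 in Balb/cJ. The C57Bl/6EiJ KLA peak at Slc1a2 was near the floor of its list (percentile 0.795), and no other C57Bl/6EiJ list held a peak there. The 5 strongest C57Bl/6EiJ-only Veh loci were thus held by C57Bl/6EiJ in both treatments, while the 5 strongest Balb/cJ-only Veh loci were JunD loci in C57Bl/6EiJ with KLA. Absence from the C57Bl/6EiJ Veh list of JunD was not absence from every Veh list of that background. The JunD Veh list of PPARgKO TGEMs held a peak at the Capzb, Cracr2a, Id2 and Slc7a15 sites. The C57Bl/6EiJ Veh lists of ATF3 and Jun held one at the Cracr2a, Id2 and Slc7a15 sites.

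With KLA, the strongest C57Bl/6EiJ-only loci lay near Sirt4 (count 799), near Plcl2 (782), in an intron of App (757), near Marcks (748) and in an intron of Disc1 (743). The Sirt4, Plcl2 and App sites were peaks in both strains with Veh. Their Veh counts were 143, 123 and 81 in C57Bl/6EiJ and 117, 58 and 76 in Balb/cJ. The strongest Balb/cJ-only KLA loci lay near Pfkfb3, a regulator of glycolysis (254), near E230025N22Rik (249), near Sirt4 at another position (195), upstream of Ccl2, a monocyte chemoattractant (191), and near Klf6 (178). Of these, only the Pfkfb3 site lacked a JunD peak in C57Bl/6EiJ with Veh. The KLA lists of ATF3, Jun, Fos and JunB in C57Bl/6EiJ held a peak at it.

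The next question was whether loci that were JunD loci in 1 strain with Veh were KLA loci in the other. Of the 13780 Balb/cJ-only Veh loci, 5048 (36.6%, 35.8 to 37.4) were JunD loci in C57Bl/6EiJ with KLA. In Balb/cJ itself 42.8% were kept with KLA, 27.2% were KLA loci in both strains, and 47.8% in neither. Of the 4775 C57Bl/6EiJ-only Veh loci, 2354 (49.3%, 47.9 to 50.7) were JunD loci in Balb/cJ with KLA, 56.2% were kept in C57Bl/6EiJ, and 31.2% were KLA loci in neither. Shared Veh loci were KLA loci in C57Bl/6EiJ at 85.0%, in Balb/cJ at 80.3% and in neither at 8.98%.

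For Balb/cJ-only loci the share was lower at weaker loci. Of the 64 Balb/cJ-only Veh loci in the strongest 10% of their list, 51 (79.7%) were C57Bl/6EiJ KLA loci, against 460 of 2924 (15.7%) in the weakest 10%. For C57Bl/6EiJ-only Veh loci the share in the Balb/cJ KLA list did not fall steadily. It was 50.0% (13 of 26, 32.1 to 67.9) in the strongest 10%, 47.3% in the next, between 62.4% and 68.6% in the 3 after these, and 38.1% (35.3 to 40.9) in the weakest 10%. With equal list lengths, 54.6% of Balb/cJ-only Veh loci were C57Bl/6EiJ KLA loci and 47.5% of C57Bl/6EiJ-only Veh loci were Balb/cJ KLA loci, so that the order of the strains was the opposite of that at the deposited lengths.

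Seen from the C57Bl/6EiJ KLA list, 16340 peaks had no peak in C57Bl/6EiJ with Veh, and 5078 of these (31.1%) were Veh loci of Balb/cJ. Their median percentile in the KLA list was 42.9, against 33.1 for the other new peaks and 66.7 for peaks already present with Veh. In the mirror comparison, 2369 of 16015 new Balb/cJ KLA peaks (14.8%) were Veh loci of C57Bl/6EiJ, with medians of 47.9, 29.9 and 66.5. Both shares are at the deposited lengths, where the Veh list of Balb/cJ is the longer (28652 against 19653 peaks).

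The 5 Balb/cJ-only Veh loci with the highest count in C57Bl/6EiJ with KLA were named next. The highest was an intron of Zbtb32, with count 36 in Balb/cJ with Veh, 191 in Balb/cJ with KLA and 1039 in C57Bl/6EiJ with KLA. A site 39878 bp downstream of the Fos start (chr12:85513661-85513875) had 51, 244 and 1034 in the same lists. A UTR of H6pd had 105, 190 and 969. A site near Lilr4b, which encodes an inhibitory receptor, had 83, 218 and 904. These 4 loci were above percentile 98 in both KLA lists. The fifth, an intron of Pkd1l2, had 59, 33 and 906 and was at percentile 26.4 in Balb/cJ with KLA.

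Over the 4 lists together there were 51372 JunD loci. All 4 lists held 11059 of them (21.5%), of which 4185 were in the strongest 10% of at least 1 list. Both KLA lists alone held 6826, and both Veh lists alone 1335. The loci seen in 1 list alone numbered 6793 for Balb/cJ KLA, 6581 for Balb/cJ Veh, 4401 for C57Bl/6EiJ KLA and 1490 for C57Bl/6EiJ Veh. Of the loci seen with Veh alone in 1 strain, 1 in Balb/cJ and 0 in C57Bl/6EiJ were in the strongest 10% of a list. The pattern of KLA in both strains with Veh in Balb/cJ only held 3764 loci, and its mirror with Veh in C57Bl/6EiJ only held 1746. These numbers depend on the lengths of the lists. At equal list lengths, 2436 shared KLA loci had a Veh peak in Balb/cJ only and 2057 had one in C57Bl/6EiJ only.

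**Figure D3:**
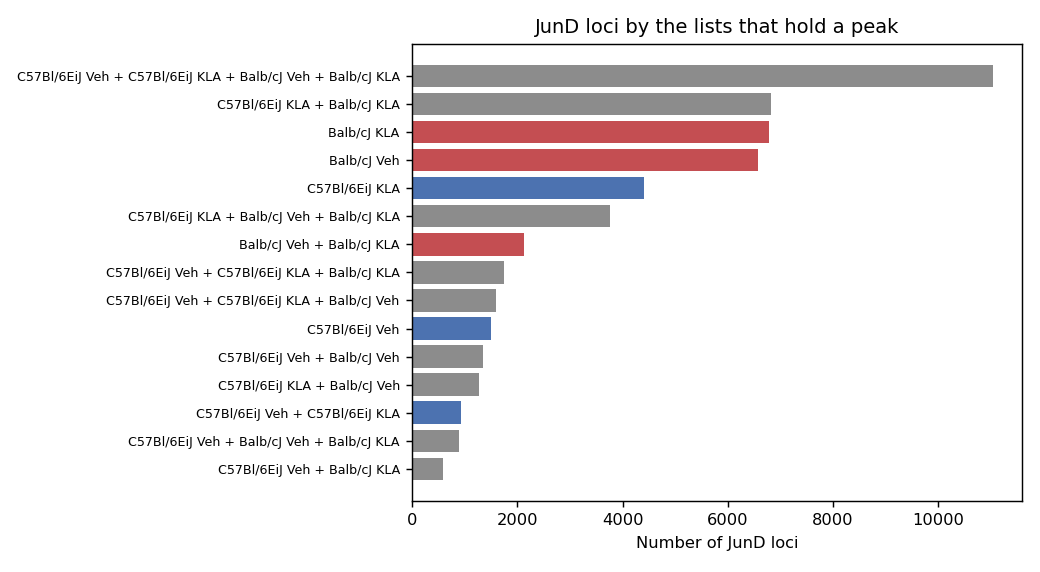
Number of JunD loci (x axis) for each combination of the 4 lists that holds a peak (y axis). Blue bars are C57Bl/6EiJ alone, red bars Balb/cJ alone and grey bars both strains, and the longest bar is the 11059 loci of all 4 lists.

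Of the combinations that separate the strains, JunD in both treatments of 1 strain and in neither list of the other held 918 loci (1.79%) for C57Bl/6EiJ and 2117 (4.12%) for Balb/cJ. No JunD peak of the other strain lay within 1 kb of 665 (72.4%) and 1723 (81.4%) of them. An ATF3 peak of the same strain in either treatment, from an independent antibody, was found at 814 (88.7%) and 1441 (68.1%). Shared loci had comparable or higher shares within 1 treatment. ATF3 of C57Bl/6EiJ was at 85.4% of shared Veh and 91.6% of shared KLA loci, and ATF3 of Balb/cJ at 72.9% and 89.8%. None of the 8 lists of AP-1 proteins of the other strain, both JunD lists included, held a peak at 299 (32.6%) and 1019 (48.1%) of the 918 and 2117 loci.

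The strongest of these loci, chosen after their values were seen, were next described singly. The Rab7b site had count 134 with Veh (percentile 96.3) and 662 with KLA (93.7), and the Tmem260 site had 118 (93.8) and 697 (95.1), in C57Bl/6EiJ. Neither was in an AP-1 list of Balb/cJ, whereas the C57Bl/6EiJ lists of ATF3 and Jun with both treatments and of Fos, JunB and PU.1 with KLA held a peak at both. An intron of Mid1 on the X chromosome had 100 and 729 and was likewise absent from every Balb/cJ list. In Balb/cJ, the site in Cacna1a, a calcium channel subunit, had 163 with Veh and 163 with KLA (98.1 and 96.7). The 6 Balb/cJ lists of ATF3 and Jun with both treatments and of Fos and JunB with KLA held a peak there, and no C57Bl/6EiJ list did. The site in Rasal2, a Ras GTPase activator, had 135 and 174, and in C57Bl/6EiJ only the Fos KLA list held a peak. The Sipa1l2 site had 117 and 136, with a peak in the C57Bl/6EiJ ATF3 KLA list, and the TRE letters were not in its window. A site near Mrps23 had 92 and 170 and was in no C57Bl/6EiJ list.

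The lists of the other AP-1 proteins were then read at the JunD loci. Their antibodies are independent of the choice of loci, but each is again 1 list per strain, and their lengths differ between strains. With JunD lists of equal length, ATF3 with Veh was found at 55.0% of C57Bl/6EiJ-only loci in C57Bl/6EiJ and 24.8% in Balb/cJ. At Balb/cJ-only loci it was found at 42.2% in C57Bl/6EiJ and 50.7% in Balb/cJ, and at shared loci at 88.1% and 75.9%. Jun with Veh was found at 33.0% and 6.72% of C57Bl/6EiJ-only loci, 23.8% and 28.6% of Balb/cJ-only loci and 69.5% and 59.2% of shared loci in the same order. With KLA, Fos was found at 44.7% and 62.0% of C57Bl/6EiJ-only loci, at 14.7% and 58.9% of Balb/cJ-only loci and at 75.04% and 93.5% of shared loci. The Fos lists themselves held 24365 peaks in C57Bl/6EiJ and 40459 in Balb/cJ.

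With lists cut to equal length, another protein present in 1 strain only was mostly in the strain of JunD, though the strains were unequal at shared loci too. In these cut lists ATF3 with Veh was in 1 strain only at 1949 C57Bl/6EiJ-only loci, and 1547 (79.4%) matched the strain of JunD. At Balb/cJ-only loci 1506 of 2033 (74.1%) matched. At shared loci with ATF3 in 1 strain only, 70.1% were in C57Bl/6EiJ. For Jun with Veh the matching shares were 79.1% and 77.1%, with 53.4% in C57Bl/6EiJ at shared loci. With KLA the matching shares at C57Bl/6EiJ-only and Balb/cJ-only loci were 78.1% and 74.8% for ATF3, 65.1% and 91.4% for Jun, 70.0% and 69.3% for Fos and 81.1% and 60.8% for JunB. At shared KLA loci the share in C57Bl/6EiJ was 57.3% for ATF3, 54.6% for Jun, 35.9% for Fos and 40.5% for JunB. Fos and JunB in 1 strain only were thus mostly in Balb/cJ at shared loci too, at 2531 of 3947 and 3642 of 6125. The matching share of JunB at Balb/cJ-only loci (60.8%, 57.1 to 64.4) was near that, so it shows no excess over shared loci. At the deposited lengths the matching shares at C57Bl/6EiJ-only and Balb/cJ-only Veh loci were 88.7% and 59.9% for ATF3 and 90.9% and 50.3% for Jun. With KLA they were 78.1% and 73.3% for ATF3, 87.98% and 61.9% for Jun, 28.98% (974 of 3361) and 94.9% for Fos and 48.3% and 90.9% for JunB. For Fos and JunB at C57Bl/6EiJ-only KLA loci the direction thus turned with the lengths of the lists.

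**Figure D4:**
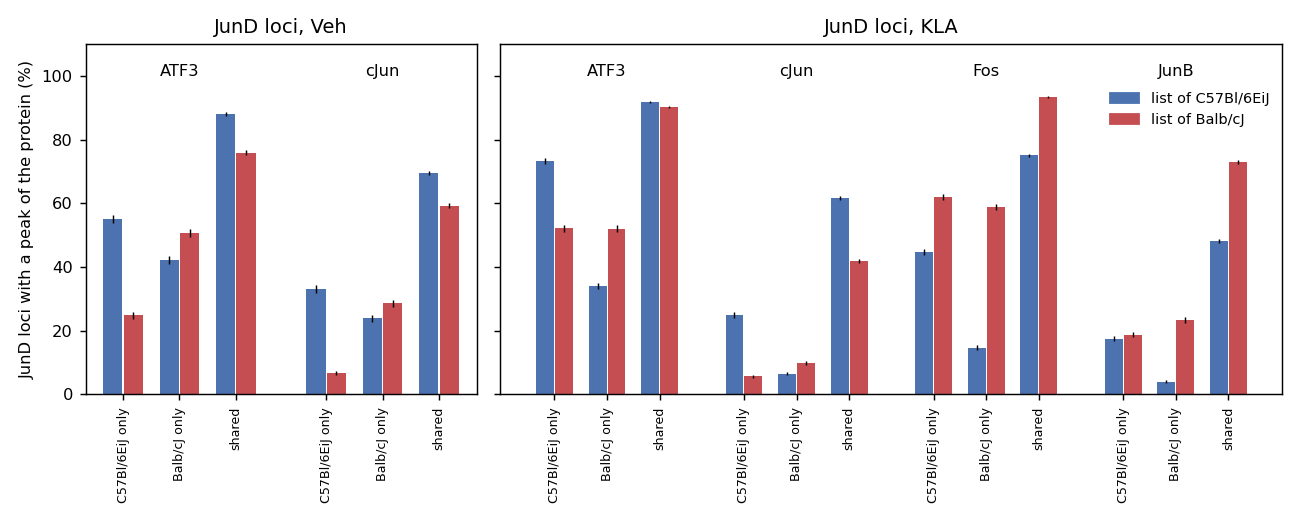
Share of JunD loci of each class (y axis, %) with a peak of ATF3, Jun (cJun), Fos or JunB in the C57Bl/6EiJ list (blue) or the Balb/cJ list (red) of the same treatment, with JunD lists of equal length. Bars are single lists and error bars are 95% Wilson intervals, and shared loci have the tallest bars, up to 93.5% for Fos in Balb/cJ.

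As a scale for these differences, the 10000 strongest JunD peaks of the 2 strains overlapped at 77.6% with Veh and 79.9% with KLA. Within a strain, Veh and KLA overlapped less, at 59.6% in C57Bl/6EiJ and 61.7% in Balb/cJ. The C57Bl/6EiJ Veh list overlapped the Veh list of PPARgKO TGEMs at 65.4%.

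Cofactors measured in C57Bl/6EiJ only were more often found at shared loci. At the deposited lengths, PU.1 with Veh was found at 67.9% of shared, 57.05% of C57Bl/6EiJ-only and 40.3% of Balb/cJ-only loci. PPARg was found at 73.4%, 57.3% and 34.1%, and CEBPa at 39.8%, 24.1% and 13.0%. With KLA, PU.1 was found at 64.4%, 48.9% and 31.6%. JunD of PPARgKO TGEMs, a separate Veh list, was found at 58.3%, 39.0% and 18.9% of the Veh classes. When the JunD lists were cut to equal length, shared loci still had the highest shares, but the strain-only classes lay closer with Veh. PU.1 was then at 55.99% of C57Bl/6EiJ-only and 50.5% of Balb/cJ-only Veh loci, and PPARg at 55.99% and 46.7%. CEBPa was at 23.5% and 18.8%, and JunD of PPARgKO TGEMs at 38.2% and 27.2%. With KLA, PU.1 was at 48.4% and 33.4%, so that gap changed less.

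The sequence under strain-only loci held the TRE less often. The letters TGACTCA on either strand were found in the central 200 bp at 33.6% of shared, 17.99% of C57Bl/6EiJ-only and 20.6% of Balb/cJ-only Veh loci, against 26.0% of all Veh loci and 3.62% of windows of the same length 5 kb away. With KLA the shares were 34.6%, 26.8% and 20.2%, against 29.5% of all loci and 3.71% of the windows. Within the upper 50% of each Veh list, 26.2% of C57Bl/6EiJ-only and 27.6% of Balb/cJ-only loci held a TRE, against 40.5% and 36.8% of shared loci ranked in the same lists. The NFkB motif GGANTTTCC was found at 3.71% of shared, 3.22% of C57Bl/6EiJ-only and 2.05% of Balb/cJ-only KLA loci, against 0.703% of the windows, and at 1.21%, 0.964% and 1.10% of the Veh loci. These are letters of the C57BL/6J genome, and strain variants within them were not analysed here.

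Strain-only loci, apart from the C57Bl/6EiJ-only KLA loci, lay near a gene start more often than shared loci, though not at every rank. A transcription start site (TSS) of a protein-coding gene lay within 1 kb of 15.5% of shared, 27.9% of C57Bl/6EiJ-only and 20.0% of Balb/cJ-only Veh loci. With KLA it did so at 14.5% of shared, 13.9% of C57Bl/6EiJ-only and 27.6% of Balb/cJ-only loci. At the upper 50% of each list by count, the Veh values were 149 of 825 (18.1%) for C57Bl/6EiJ-only and 427 of 2592 (16.5%) for Balb/cJ-only loci, against 11.03% and 13.2% of shared loci ranked in the lists of C57Bl/6EiJ and Balb/cJ, so the gap between the strains with Veh was smaller there. With KLA, 393 of 1173 (33.5%) Balb/cJ-only KLA loci were within 1 kb of a TSS, against 125 of 1549 (8.07%) C57Bl/6EiJ-only KLA loci and 14.2% of shared loci ranked in the Balb/cJ list. In the lower 50% of the C57Bl/6EiJ Veh list, a TSS lay within 1 kb of 29.9% of C57Bl/6EiJ-only and 22.1% of shared loci. In the lower 50% of the Balb/cJ Veh list the order was reversed, at 20.9% of Balb/cJ-only and 24.0% of shared loci. Among the 10000 strongest peaks, 12.04% of Balb/cJ KLA and 8.13% of C57Bl/6EiJ KLA peaks were within 1 kb of a TSS, and the Veh lists had 11.3% and 11.9%.

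Among Balb/cJ-only KLA loci of the upper 50%, the 393 promoter loci held a TRE at 7.63%, against 30.9% of the 780 distal ones, and a JunB peak of Balb/cJ at 21.1% against 66.5%. The order for the TRE was the same in other classes, at 10.5% and 31.0% of Balb/cJ-only Veh loci and 21.04% and 39.9% of shared KLA loci in the Balb/cJ list. The centre of the locus lay in an exon at 28.5% against 3.97%, and the shared KLA loci in the Balb/cJ list had 20.8% and 2.24%. Whether these were first exons was not tested. An ATF3 peak of Balb/cJ was found at 67.9% and 83.5%. The strongest of them, named after their values were seen, lay at Isy1, with KLA count 175 in Balb/cJ and Veh counts of 97 in C57Bl/6EiJ and 95 in Balb/cJ, at Marcksl1 (132, in no other JunD list) and at Tnf. Next by count came sites at Elp5 (111), Nfkbia (107) and St6galnac6 (105), and weaker ones included Tinf2, Klf10 and Dusp2.

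Loci near 198 genes in 8 lists were counted within the gene and 10 kb on each side. Near all protein-coding genes, 15.5% of Veh loci were C57Bl/6EiJ-only, 42.0% Balb/cJ-only and 42.5% shared, and 18.7%, 28.0% and 53.3% of KLA loci. A locus near several genes was counted at each.

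The 18 genes of AP-1 family members had 86 Veh loci, of which 10.5% were C57Bl/6EiJ-only, 38.4% Balb/cJ-only and 51.2% shared, and 98 KLA loci (21.4%, 26.5% and 52.0%). A site upstream of Junb (chr8:84985606-84985843) was Balb/cJ-only with Veh, with count 82, and a KLA locus in both strains, with 683 in C57Bl/6EiJ and 188 in Balb/cJ. An intron of Batf, a partner of Jun proteins, had 53 in Balb/cJ with Veh and 453 in C57Bl/6EiJ with KLA, and no peak in the other 2 lists. Sites at Batf2 and Batf3 were C57Bl/6EiJ-only with Veh, with counts of 57 and 61, and KLA loci in both strains (490 and 278 in C57Bl/6EiJ, 95 and 75 in Balb/cJ). At Mafk, which encodes a small Maf protein, 4 loci were Balb/cJ-only with Veh with counts from 44 to 104, and 2 of them were KLA loci in both strains.

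The 28 genes of TLR4 signalling and NFkB feedback had 146 Veh loci (9.59% C57Bl/6EiJ-only, 29.5% Balb/cJ-only, 61.0% shared) and 269 KLA loci (16.0%, 26.8% and 57.2%). At Cd14, the TLR4 co-receptor, a site (count 51) was Balb/cJ-only with Veh and had 499 in C57Bl/6EiJ and 128 in Balb/cJ with KLA. An intron of Irak2, a kinase of the pathway, had 80, 449 and 76 in the same 3 lists. A site at the start of Tlr4 had Veh counts of 93 in C57Bl/6EiJ and 96 in Balb/cJ, and a KLA peak in C57Bl/6EiJ (403) only. The same held for 3 loci at Dusp1, a MAP kinase phosphatase, with Veh counts from 67 to 101 over both strains and C57Bl/6EiJ KLA counts of 381, 308 and 441. At Ly96, the gene of MD-2, and Irak3, a negative regulator, KLA peaks of C57Bl/6EiJ (515 and 474) had no peak in the other 3 lists. These examples are not typical of the list, which had 43 C57Bl/6EiJ-only and 72 Balb/cJ-only KLA loci. Dusp1 itself had 6 and 8, Nfkb1 4 and 9, Nfkbia 0 and 8, and Nfkbiz 0 and 6.

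The 26 cytokine and chemokine genes found in the annotation had 75 Veh loci (16.0% C57Bl/6EiJ-only, 29.3% Balb/cJ-only, 54.7% shared) and 199 KLA loci (16.6%, 28.1% and 55.3%). The Tnf promoter (chr17:35201994-35202220) had count 68 in C57Bl/6EiJ with Veh, no peak in Balb/cJ with Veh, and 707 and 225 with KLA. The Cxcl10 promoter (chr5:92348895-92349135) likewise had 38 in C57Bl/6EiJ with Veh, none in Balb/cJ, and 671 and 157 with KLA. At Il10 a site had 57 and 49 with Veh and a KLA peak in C57Bl/6EiJ (576) only. Upstream of Il1a, 2 sites were KLA loci of C57Bl/6EiJ alone, with 640 and 542.

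Some of the Balb/cJ-only KLA loci lay within the bodies of cytokine genes, from the first to the last annotated base. This split was made after the values were seen. Of 47 distinct Balb/cJ-only KLA loci near these genes, 23 (48.9%, 35.3 to 62.8) lay inside a gene, against 9 of 31 (29.0%) C57Bl/6EiJ-only and 28 of 100 (28.0%) shared loci. All 3 shares were below those over all protein-coding genes, at 81.6% of Balb/cJ-only, 77.2% of C57Bl/6EiJ-only and 78.7% of shared KLA loci. None of the 23 held a TRE and none overlapped an ATF3 KLA peak of Balb/cJ (0 of 23, upper 95% bound 14.3%), and 2 overlapped one of C57Bl/6EiJ. Inside the same genes, 23 of 28 (82.1%) shared loci overlapped a Balb/cJ ATF3 peak and 9 held a TRE. Over all protein-coding genes, 44.8% of 6860 Balb/cJ-only KLA loci inside a gene overlapped a Balb/cJ ATF3 peak and 17.9% held a TRE. Examples in Cxcl1, a neutrophil chemokine gene, were 2 introns (counts 65 and 55) and a UTR (77), in Cxcl2 2 UTR sites (97 and 67), and in Ccl2 a coding exon (52), none with a peak in another JunD list. Beyond the end of Ccl2, in an intron of Gm17268, 2 more loci (88 and 99) were in the Balb/cJ KLA list alone. At Tnf, a coding exon (127) and an intron (117, with 36 in Balb/cJ with Veh) lay beside the promoter peak.

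The 23 genes of the interferon response found in the annotation had 71 Veh loci, of which 5.63% were C57Bl/6EiJ-only, 53.5% Balb/cJ-only and 40.8% shared. Balb/cJ-only Veh loci were found at 16 of the 23 genes (69.6%) and C57Bl/6EiJ-only ones at 3 (13.04%). Over all protein-coding genes these shares were 35.3% and 18.1%, but only 51.2% of those genes had any Veh locus, against 82.6% here. In the other gene lists, the share of genes with Balb/cJ-only Veh loci ran from 54.2% (MHC region) to 80% (lipid handling). With KLA the 23 genes had 126 loci (19.8%, 25.4% and 54.8%). A site at the start of Gbp2, an interferon-inducible GTPase (chr3:142620431-142620646), had count 85 in Balb/cJ with Veh, no peak in C57Bl/6EiJ with Veh, and 577 and 243 in C57Bl/6EiJ and Balb/cJ with KLA. A site just upstream of Rsad2, the gene of viperin, had 43, none, 467 and 114 in the same order, and an intron of Gbp3 had 54, none, 306 and 74. At Irf5, a transcription factor of the TLR pathways, a site was Balb/cJ-only with both treatments (67 and 81).

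Macrophage lineage and receptor genes had 174 Veh loci (13.8% C57Bl/6EiJ-only, 32.2% Balb/cJ-only, 54.0% shared) and 223 KLA loci (22.4%, 18.8% and 58.7%). Balb/cJ-only Veh loci included introns of Spi1, the gene of PU.1 (count 47), Runx1 (46), Tfec (53) and Cx3cr1, the fractalkine receptor (82), each of which was a KLA locus in both strains. In 2 introns of Itgam, the CD11b gene, JunD was shared with Veh (46 and 47, 68 and 63) and C57Bl/6EiJ-only with KLA (441 and 359). Marco, a scavenger receptor, had 0 JunD loci within 10 kb in any of the 4 lists.

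Lipid handling genes had 123 Veh loci (13.8% C57Bl/6EiJ-only, 40.7% Balb/cJ-only, 45.5% shared) and 126 KLA loci (20.6%, 23.8% and 55.6%). An intron of Pparg, a lipid-activated nuclear receptor, had 72 in Balb/cJ with Veh and KLA counts of 408 in C57Bl/6EiJ and 97 in Balb/cJ. An intron of Ppard, a related receptor, was C57Bl/6EiJ-only with Veh (52) and had KLA counts of 310 in C57Bl/6EiJ and 106 in Balb/cJ. A site at Fth1, the ferritin heavy chain gene, was in all 4 lists, with Veh counts of 124 and 138 and KLA counts of 528 and 157 in C57Bl/6EiJ and Balb/cJ, and so was one upstream of Mmp12, a macrophage elastase, with 124 and 126 in Balb/cJ and 82 and 539 in C57Bl/6EiJ. Within 10 kb of Fth1, 3 other loci were C57Bl/6EiJ-only with Veh (38, 84 and 97), all of them Balb/cJ KLA peaks, and 6 were Balb/cJ-only with KLA, with counts from 34 to 74. Around Mmp12, 3 intergenic loci were in both Balb/cJ lists and in neither C57Bl/6EiJ list, with Veh counts of 33, 23 and 35 and KLA counts of 45, 22 and 44.

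MHC region genes had 47 Veh loci (17.0% C57Bl/6EiJ-only, 46.8% Balb/cJ-only, 36.2% shared) and 69 KLA loci (18.8%, 34.8% and 46.4%), and multicopy immune gene families had 89 (17.98%, 36.0% and 46.1%) and 111 (18.02%, 22.5% and 59.5%). Reads of near-identical copies can be shared between such genes, so their loci are uncertain. At Pirb, a UTR had counts of 50 with Veh and 575 with KLA in C57Bl/6EiJ and no peak in Balb/cJ. Near Trim30a, a site in a UTR of a neighbouring gene was Balb/cJ-only with Veh (43) and had 528 and 147 with KLA.

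Along the genome, strain-only loci were spread over every autosome and the X chromosome. At equal list lengths the Balb/cJ-only share of Veh loci lay between 19.8% and 26.8% over the autosomes, and the C57Bl/6EiJ-only share between 20.1% and 25.9%. On the X chromosome the Balb/cJ-only share was 34.9% with Veh (107 of 307 loci, 29.7 to 40.3) and 28.1% with KLA (24.7 to 31.8), where the autosomes lay between 19.2% and 23.4%. At deposited lengths it was 65.8% (384 of 584) with Veh and 34.4% (232 of 674) with KLA. X peaks were weak in every list, with median percentiles between 29.4 and 33.1. Of the 10000 strongest peaks, X held 0.6% in C57Bl/6EiJ and 0.65% in Balb/cJ with Veh, and 0.53% and 0.54% with KLA.

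**Figure D5:**
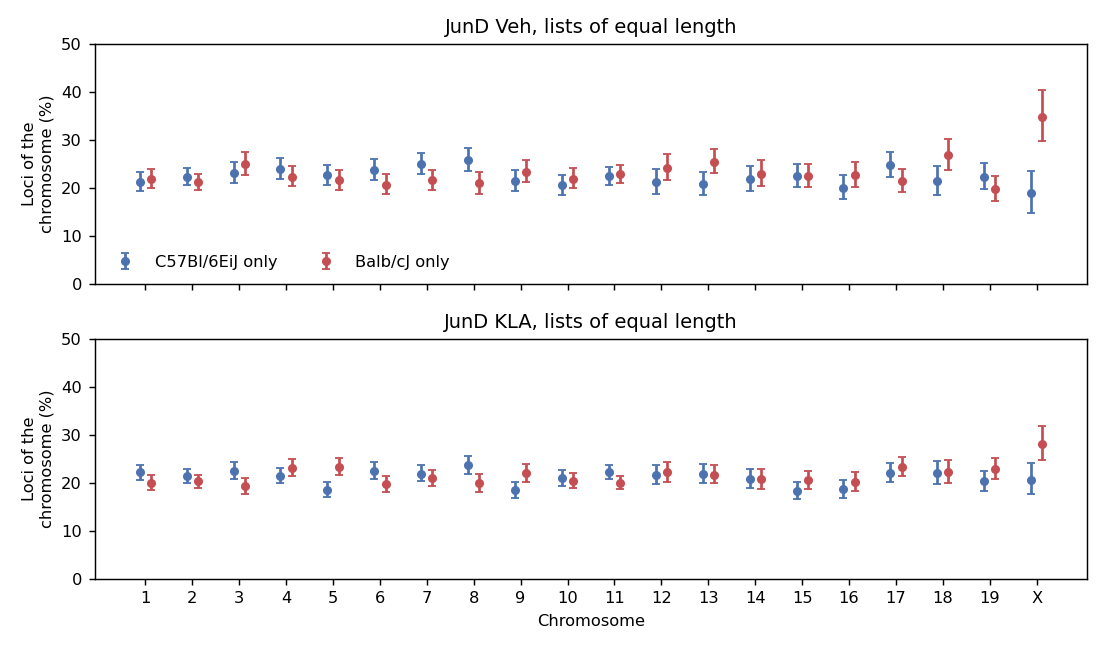
Share of the JunD loci of each chromosome (y axis, %) found only in C57Bl/6EiJ (blue) or only in Balb/cJ (red), with lists of equal length, for Veh (top) and KLA (bottom). Error bars are 95% Wilson intervals, and the Balb/cJ-only point of the X chromosome stands at 34.9% with Veh.

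Neighbouring loci were of the same class slightly more often than the class is frequent. At equal lengths, the next locus of a C57Bl/6EiJ-only Veh locus was of the same class at 25.6% and that of a Balb/cJ-only one at 26.0%, where each class makes up 22.6% of loci. With KLA the values were 24.3% and 27.4%, against 21.2%. Of the runs of consecutive C57Bl/6EiJ-only Veh loci at deposited lengths, 3306 of 3958 were a single locus, and of the Balb/cJ-only runs 4412 of 7678. Across 965 windows of 1 Mb with 10 or more loci in both treatments, the Spearman correlation of the strain-only share with Veh and with KLA was 0.177 for C57Bl/6EiJ and 0.208 for Balb/cJ, as a description of windows that share the lists.

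The longest runs were the same region in both treatments for C57Bl/6EiJ. Between Pard3, a cell polarity gene, and Nrp1, the gene of neuropilin-1, 8 consecutive Veh loci (chr8:127441133-128060288) and 10 consecutive KLA loci (chr8:127441218-127837738) were C57Bl/6EiJ-only. Their counts ran from 30 to 64 with Veh and from 136 to 434 with KLA. None of the 8 was a Balb/cJ KLA locus and none of the 10 a Balb/cJ Veh locus. ATF3 of C57Bl/6EiJ was found at 7 of the 8 and at all 10, and ATF3 of Balb/cJ at 1 and 4. Other C57Bl/6EiJ-only Veh runs at deposited lengths had 6 loci on chromosome 7 (chr7:118533272-118778005) and 5 on chromosome 4 (chr4:150824050-150914612). In contrast to the Pard3 run, 4 of the 6 and 3 of the 5 were Balb/cJ KLA loci. At equal lengths, another run of 8 C57Bl/6EiJ-only Veh loci lay between Tnks and Ppp1r3b on chromosome 8. One of 7 lay on chromosome 1 (chr1:120251244-121327995), with Steap3, Marco and Insig2 as the nearest genes. The KLA list had 6 C57Bl/6EiJ-only loci in a row nearest to Steap3 and Marco, none of them within 10 kb of Marco, and none of the 6 was a Balb/cJ Veh locus. A KLA run of 7 (chr1:159890637-160079655) began in an intron of Tnr, and its other loci were nearest to 4930523C07Rik.

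The longest Balb/cJ-only run had 18 Veh loci on chromosome 18 (chr18:9552667-10533203). Counts ran from 20 to 112, 11 of the 18 were also Balb/cJ KLA loci and 3 were C57Bl/6EiJ KLA loci. ATF3 of Balb/cJ was found at 13 and ATF3 of C57Bl/6EiJ at 0. At equal lengths the run had 15 loci, of which 10 were nearest to Colec12, which encodes a scavenger receptor, and the others to Cetn1, Thoc1, Usp14, Rock1 and Esco1. The next longest Balb/cJ-only Veh runs at deposited lengths had 15 loci on the X chromosome (chrX:134554507-139587423) and 14 on chromosome 12 (chr12:3235565-3745780). Of these, 3 and 6 were C57Bl/6EiJ KLA loci. ATF3 of Balb/cJ was found at 3 and 2 of them, and ATF3 of C57Bl/6EiJ at 8 and 1. At equal lengths, 8 Balb/cJ-only Veh loci lay in a row at Cadm1, a cell adhesion gene (chr9:47595292-47745920). They had counts from 41 to 123, 7 of them were Balb/cJ KLA loci and 2 were C57Bl/6EiJ KLA loci. Also at equal lengths, 7 Balb/cJ-only Veh loci at the Ifi200 cluster of interferon-inducible genes (chr1:173913014-174041169) had counts from 36 to 140. In contrast to the chromosome 18 and Cadm1 runs, 5 of these 7 were C57Bl/6EiJ KLA loci. With KLA, runs of Balb/cJ-only loci lay around Tgfb2 on chromosome 1 (10 loci), at Plk2 on chromosome 13 (9) and on chromosome 15 (9), and none of these was a C57Bl/6EiJ Veh locus. A run of 8 KLA loci at equal lengths covered Actb, the beta-actin gene, and Fbxl18 (chr5:142895180-142906784), with counts from 32 to 133, 6 of them Balb/cJ Veh loci and 3 C57Bl/6EiJ Veh loci, and ATF3 of either strain at 0. Shared reads of near-identical copies were not examined for these runs.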

How the data were processed

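JunD ChIP-seq peaks of TGEMs were compared between strains within each treatment. Per the methods, the authors aligned C57Bl/6 reads to mm10 and Balb/cJ reads to a genome built for that strain, whose coordinates they then moved to mm10. Bowtie2 was the aligner and HOMER the peak caller, with input as control, and peaks at or above an irreproducible discovery rate (IDR) of 0.05 over replicates were dropped. Each of the 22 lists used here gives a position, a count and a score per peak. The deposited counts are whole numbers, not scaled to library size, and how replicates were combined in them is not given in the sources used here, so depth affects them and ranks within a list were used. The score that the authors deposited is the scaled IDR. JunD lists summed to counts between 1178031 and 10395306, and library totals were not used here.

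Peaks overlapping by 1 bp were joined into loci with Python 3.11.15, numpy 2.4.6, pandas 2.3.3, scipy 1.17.1, pysam 0.24.0 and matplotlib 3.10.9, checked on simulated data. Genes and TSSs were those of GENCODE M21 (21911 protein-coding genes), and 9 motifs were searched as exact letters on both strands in 200 bp of GRCm38. Loci on unplaced scaffolds (5 with Veh, 3 with KLA) were left out of positions and motifs. Shares have 95% Wilson intervals. With 1 list per group no p-value was computed. The members and gene lists were chosen with earlier results of these data known. The named loci were, per treatment, the 5 strain-only loci with the highest count in each strain, the 3 shared loci with the highest rank sum, the 3 with the largest rank difference in each direction among the strongest 10%, the 5 Balb/cJ-only Veh loci with the highest C57Bl/6EiJ KLA count, the 3 longest runs, loci of listed genes in the upper 50% of a list, and loci of Cxcl10, Fth1, Marco and Mmp12. Equal list lengths, a stricter or looser overlap, the upper 50%, a score of 1000 and autosomes alone were tried as alternatives.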

Additional observations from a re-analysis of the deposited data

How the results depend on the processing

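No paired analysis was possible because each strain and treatment has 1 list in which replicates were already combined, which also leaves no spread between mice. Of 42 alternatives for the 6 shares, 7 stayed within the 95% interval and 35 left it, and of 134 alternatives for single features 53 stayed within it. The shares below are given in the order C57Bl/6EiJ-only Veh, Balb/cJ-only Veh, C57Bl/6EiJ-only KLA, Balb/cJ-only KLA, Balb/cJ-only Veh loci in C57Bl/6EiJ KLA, and C57Bl/6EiJ-only Veh loci in Balb/cJ KLA. They were 14.3%, 41.2%, 19.6%, 24.8%, 36.6% and 49.3% as reported. With peak centres within 100 bp they were 15.6%, 42.1%, 20.5%, 25.7%, 34.7% and 44.4%. With 50% reciprocal overlap they were 15.2%, 41.8%, 20.2%, 25.4%, 35.0% and 45.5%. With peaks within 1 kb counted as shared they were 11.8%, 37.5%, 15.5%, 20.6%, 41.9% and 53.8%. With equal list lengths they were 22.6%, 22.6%, 21.2%, 21.2%, 54.6% and 47.5%, which makes the strain-only shares near equal by construction, and turned the order of the last pair. With the strongest 50% of each list they were 7.68%, 36.7%, 14.3%, 19.96%, 39.8% and 40.4%. With a score of 1000 only they were 4.96%, 52.5%, 18.8%, 17.8%, 42.5% and 49.4%, and C57Bl/6EiJ-only loci then outnumbered Balb/cJ-only ones with KLA. On autosomes alone none left its interval. Depth limits all shares, since a peak just under the threshold of the other list counts as strain-only, and the C57Bl/6EiJ KLA list starts at count 120.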
